A study of Mus musculus with 48 samples.

Results

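6DT1 is a mouse mammary tumor cell line that the sample labels trace to a genetically engineered mouse tumor of the FVB/N strain. 4 tumors titled 6DT1 were compared with the 16 tumors titled Met-1, MVT-1, M6 and HRM-1, 4 of each, which are all the other FVB/N tumors among the 48 in the series. Cells of each line had been placed in the #4 mammary fat pad of young female immunocompetent mice of the matching strain, and the tumors were taken at 0.5 to 1.0 cm, freed of surrounding and necrotic tissue and frozen. All 5 models share the strain, the site and this origin, and none was treated. In the field 6DT1 is known as a line from an MMTV-Myc tumor, MVT-1 as one from an MMTV-Myc and VEGF tumor, Met-1 as one from an MMTV-PyMT tumor and M6 as one from a C3(1)/SV40 T antigen tumor. Each model is 1 line, so a difference between models is a difference between lines. A 6DT1 value is the log2 signal of 1 Affymetrix mouse gene array for 1 tumor.

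Myc is a transcription factor that drives ribosome production and growth, and tumors from Myc transgenes are among the classical mouse models of breast cancer. A tumor piece also holds host cells, among them fibroblasts, vessels, macrophages, fat cells and remains of the mammary gland. Interferons, released on infection or by immune cells, switch on a shared set of antiviral genes in tumor and host cells alike. In bulk tissue, fewer cells of a type and less RNA per cell cannot be told apart.

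The 4 6DT1 tumors did not look alike in their tissue content. Adipoq, the fat cell hormone adiponectin, had a log2 signal of 6.58 and 6.67 in replicates 1 and 4 but 12.55 and 12.74 in replicates 2 and 3, against 6.18 to 11.13 in the 16 other tumors. Plin1, which coats the fat droplet, was at 7.12 and 6.88 in replicates 1 and 4 and at 11.99 and 12.13 in replicates 2 and 3. The milk protein gene Csn1s1 followed the same split, with 4.81 and 4.71 against 11.16 and 11.03, and so did the basal keratin gene Krt5, with 6.62 and 6.55 against 10.74 and 12.33. Among the 4, replicate 3 alone held skin genes: Krt77 was at 12.56 there and between 6.26 and 6.46 in the 3 other 6DT1 tumors. Lor, a protein of the cornified layer, was at 11.16 against 5.27 to 5.59.

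A score was taken as the mean over a marker list of each gene's log2 signal minus its mean in the 16 other tumors. The adipocyte score over 9 genes was -1.46, 3.68, 3.97 and -1.54 in replicates 1 to 4, and the 16 others spanned -1.28 to 2.51. The endothelial score over 12 genes was -0.12, 1.39, 1.36 and -0.37, against -0.47 to 0.69. The basal and myoepithelial score over 10 genes was -1.0, 1.60, 2.26 and -0.92. Replicates 2 and 3 thus lay above all 16 others for fat, endothelial and basal genes, and replicates 1 and 4 lay at or near the low end of the others for fat and basal genes. Among the 16, Met-1 replicate 2 was the richest in fat genes, with a score of 2.51, and also had B cell genes at 4.14. The milk protein score was 1.76 and 2.02 in 6DT1 replicates 2 and 3, below Met-1 replicate 2 (4.20) and M6 replicate 2 (3.19). Skin keratinocyte genes scored 4.47 in 6DT1 replicate 3, but also 2.64, 1.11 and 1.53 in M6 replicates 1, 2 and 4. The genes described most closely are therefore given with the 4 values, and a call that was lost without replicates 2 and 3 is named as lost. The part of these tissues in each result was not tested unless a value is given.

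**Figure D1:**
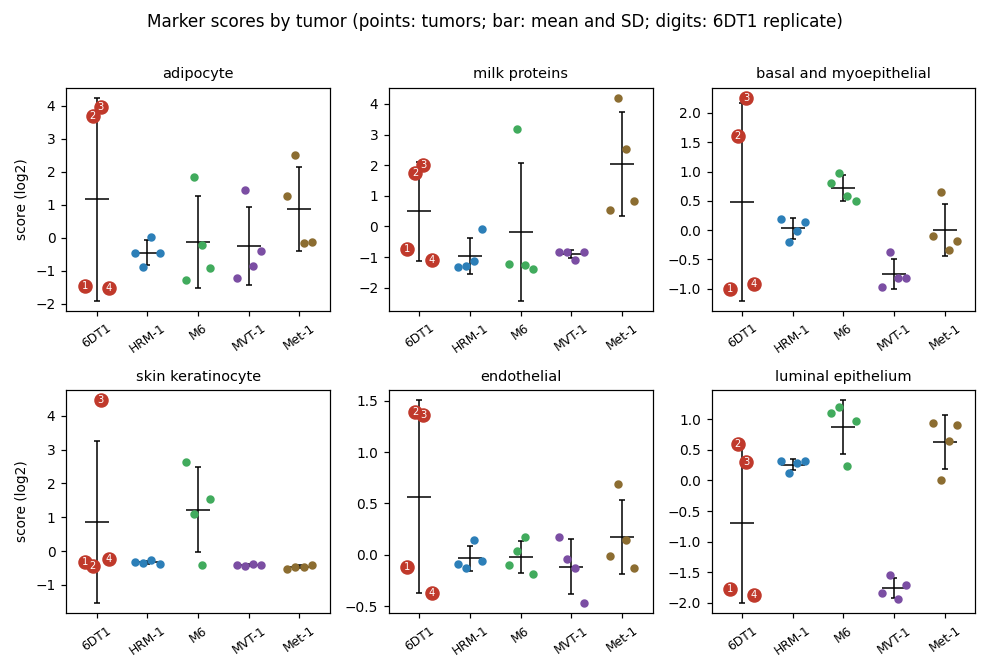
Scores of 6 marker lists in the 20 FVB/N tumors, in log2 units relative to the mean of the 16 tumors other than 6DT1. Points are tumors, the digit is the 6DT1 replicate, and bars give the mean and SD of each model (n = 4). 6DT1 replicates 2 and 3 lie at 3.68 and 3.97 for adipocyte genes, and replicates 1 and 4 at -1.46 and -1.54. Of the 4 6DT1 tumors only replicate 3 is high for skin genes.

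Signal was then compared gene by gene between 6DT1 and the mean of the other 4 models with limma over 19938 genes. 1631 genes were higher in 6DT1, 8.18% of those tested, and 2844 were lower, 14.3%, at a Benjamini-Hochberg adjusted p under 0.05. 95 genes, 0.476%, were higher than in each of the other 4 models and 191, 0.958%, were lower than in each. In 105 genes, 0.527%, all 4 6DT1 tumors lay above all 16 others, and in 210, 1.05%, all 4 lay below. 50 genes met these 3 rules as higher and 114 as lower. Of the 50, 23 had a mean log2 signal under 6, near the low end of the array, and 14 were olfactory, vomeronasal or taste receptors, while none of the 114 lay so low.

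The balance of directions moved with the scaling. Higher genes made up 36.4% of the calls against the mean of the other models, and 43.3% after quantile normalization. They made up 33.2% of the genes that differed from every model, but 53.6% after quantile normalization (96 higher, 83 lower) and 48.2% after centring each array on its median. Genes with a mean log2 signal from 8 to 10 had a median difference of -0.11 and those above 10 one of -0.13, while the median over all genes was -0.005. Quantile normalization brought the first 2 values to -0.04 and -0.05, yet all 50 and all 114 genes above were still called against the mean of the other models. Without replicates 2 and 3, 2025 genes were higher (10.2%) and 2138 lower (10.7%). 805 of the higher genes (4.04% of those tested) and 1353 of the lower (6.79%) were called both with and without these tumors, as were 48 of the 50 and 112 of the 114.

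Among genes higher than in each model and without overlap, the largest increase was in Hcar2 (Entrez gene 80885), a cell surface receptor for niacin and the ketone body β-hydroxybutyrate. Its log2 signal was 8.72, 8.48, 9.02 and 8.05 in the 4 6DT1 tumors, and the 16 others ran from 5.90 over a median of 6.54 to 7.02. All 4 tumors lay above all others by at least a whole log2 unit, whatever their fat content. The difference was 2.08 ± 0.18 (SE), or 4.23-fold, with an adjusted p of 3.7e-06, and it was 1.90 without replicates 2 and 3. Galm, which converts the anomers of galactose, stood at 9.14, 9.89, 9.56 and 8.97, with 8.65 as the highest of the others. Its difference of 1.67 ± 0.16 (adjusted p = 6.9e-06) was 1.33 without replicates 2 and 3, and the gap was narrowest against MVT-1, with a mean of 8.45.

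Clusters for a pair of microRNA genes, Mir680-1 and Mir680-2, were next in size. The array probes lie on the precursor or the transcript that holds it, so these signals are no measure of the mature microRNA. The sequences, from RefSeq on GRCm38.p6, are shown because the loci share the mature product, given in capitals within each hairpin, and so probes may cross-hybridize.
Mir680-1 hairpin, chr6:129691535-129691643, plus strand: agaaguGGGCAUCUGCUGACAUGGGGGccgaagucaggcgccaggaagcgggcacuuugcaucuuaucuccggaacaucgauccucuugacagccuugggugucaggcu
Mir680-2 hairpin, chrX:144297790-144297899, plus strand: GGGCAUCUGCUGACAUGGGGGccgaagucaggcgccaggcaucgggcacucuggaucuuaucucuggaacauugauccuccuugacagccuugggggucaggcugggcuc
Mir680-3 hairpin, chr12:35194811-35194897, minus strand: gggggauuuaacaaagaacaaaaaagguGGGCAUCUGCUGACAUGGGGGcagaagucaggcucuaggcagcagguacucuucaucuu
mmu-miR-680 with its seed, bases 2 to 8, in capitals: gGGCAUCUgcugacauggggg

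The longest run of identical bases was 39 between the hairpins of Mir680-1 and Mir680-2, and 24 and 22 between these and Mir680-3. The Mir680-1 cluster was at 7.87, 7.68, 7.58 and 7.78 in 6DT1 and between 5.47 and 6.76 in the others, a difference of 1.67 ± 0.13 (adjusted p = 1.2e-06). The Mir680-2 cluster was at 8.37, 8.84, 8.24 and 8.27 against 6.64 to 7.94, a difference of 1.27 ± 0.14 (adjusted p = 3.1e-05). The 4 tumors were close to each other for both, and neither followed the fat content, with differences of 1.77 and 1.16 without replicates 2 and 3. Mir680-3, named after its values were seen, was at 8.49, 8.40, 8.31 and 8.26 against 7.61 to 8.49, and its difference of 0.27 did not pass (adjusted p = 0.094). The loci sharing this mature sequence therefore did not move alike.

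A further microRNA locus, Mirlet7c-1, was among the 50 genes, though at a level near the low end of the array. It was at 5.07, 5.16, 4.89 and 4.85 in 6DT1 and between 4.21 and 4.55 in the others, a difference of 0.65 ± 0.06 (adjusted p = 4.8e-06). Its mature product, let-7c-5p at chr16:77599672-77599693 on the plus strand, is one of the let-7 family that restrains growth genes, and its seed is again in capitals.
mmu-let-7c-5p: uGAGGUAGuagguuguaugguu

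The other 8 of the 12 largest increases under these rules had differences from 0.75 to 1.14. Prodh, the mitochondrial enzyme that opens proline breakdown, was at 9.0, 9.38, 9.34 and 9.34 against 7.47 to 8.86, a difference of 1.01 ± 0.11 (adjusted p = 2.2e-05). Aifm2, an oxidoreductase that protects lipids from peroxidation, was at 8.66, 9.18, 9.49 and 8.43 against 7.52 to 8.37, and its difference of 0.96 shrank to 0.57 without replicates 2 and 3. Its highest values were thus those of the fat-rich tumors, and replicate 4 cleared the others by little. Cntnap1, known from the nodes of myelinated nerve fibers, was at 7.32, 7.61, 7.44 and 7.28 against 6.22 to 6.77. Its difference of 0.92 ± 0.07 (adjusted p = 1.2e-06) was one of the most even, at 0.81 without replicates 2 and 3. Syde2 was highest in replicates 1 and 4, at 8.53 and 8.24, with 8.07 and 7.84 in replicates 2 and 3 and at most 7.68 elsewhere. Tnfrsf19, a receptor of the tumor necrosis factor family, was at 8.12, 7.89, 8.42 and 8.01 against 6.88 to 7.79. Gipc2, Syt12 and Sh2b2, an adaptor in insulin receptor signaling, rose by 1.14, 0.99 and 0.75, the first 2 by 1.0 and 0.83 without replicates 2 and 3. Sh2b2 was the one of the 12 that lost its call without replicates 2 and 3 (0.56, adjusted p = 0.059).

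**Figure D2:**
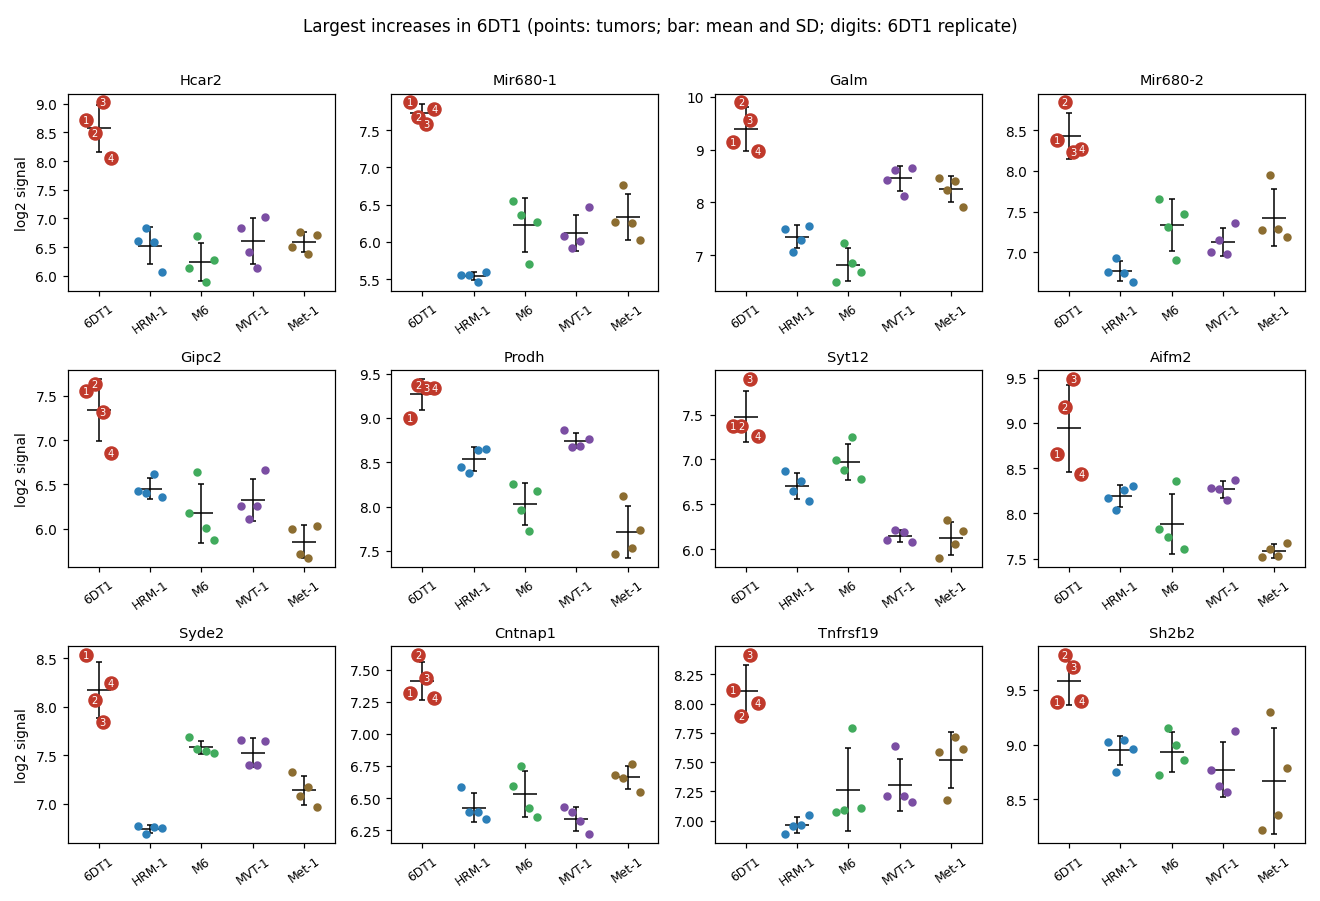
Log2 signal, by tumor model, of the 12 genes with the largest increases in 6DT1 among those higher than in each other model and without overlap. Points are tumors, the digit is the 6DT1 replicate, and bars give the mean and SD (n = 4). In each panel the 4 6DT1 tumors lie above the 16 others; Hcar2 ranges from 8.05 to 9.02 in 6DT1 and from 5.90 to 7.02 in the others.

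Several enzymes of mitochondrial energy metabolism were among the 50 higher genes. Their pathway was picked after the values were seen, so its count is a description. Dlat, the acetyltransferase subunit of pyruvate dehydrogenase, was at 10.41, 10.72, 10.59 and 10.20 against 9.49 to 10.14, a difference of 0.67 ± 0.08. Sdhc, a membrane subunit of succinate dehydrogenase, was at 11.33, 11.39, 11.14 and 11.21 against 10.37 to 11.02, and its difference of 0.50 was the same without replicates 2 and 3. Suclg1, a subunit of succinyl-CoA ligase, and Fh1, fumarase, rose by 0.61 and 0.57, and by 0.47 and 0.40 without these tumors. For these 4 genes every 6DT1 tumor lay above all 16 others. Etfa, an electron carrier for fatty acid oxidation, Bola3, which serves iron-sulfur cluster assembly, and Ndufa5, a subunit of complex I, did the same with increases of 0.66, 0.50 and 0.49, the first by 0.32 without replicates 2 and 3.

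The whole pathway did not share this. Of 20 measured genes of pyruvate dehydrogenase and the citric acid cycle, 7 rose and none fell, beside 8.18% of all genes that rose, with a median difference of 0.29 beside -0.005 for all genes. Without replicates 2 and 3, 5 rose and 3 fell, beside 10.2% and 10.7% of all genes, and the median was -0.04. Sdha, the catalytic subunit of succinate dehydrogenase, shows the split, with 11.90 and 11.82 in replicates 2 and 3, 11.07 and 11.04 in replicates 1 and 4, and 10.55 to 11.16 in the others.

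Among genes lower than in each model and without overlap, the 3 largest decreases were in chemokine and interferon-induced genes. Cxcl10 (Entrez gene 15945), an interferon-induced chemokine that draws T cells, was at 8.43, 7.49, 7.0 and 8.31 in 6DT1, and the 16 others ran from 8.94 over 9.40 to 10.87. Cxcl10 fell by 1.83 ± 0.26 on the log2 scale, 3.56-fold (adjusted p = 0.00019), and by 1.27 without replicates 2 and 3. Ifit1 (Entrez gene 15957), which binds viral RNA, was at 7.09, 6.22, 6.79 and 6.89 against 7.33 to 9.45, and it fell by 1.78 ± 0.30 (adjusted p = 0.00059). Cxcl16, a membrane-bound chemokine for CXCR6, was at 8.0, 8.63, 8.62 and 9.31 against 9.64 to 11.54, and it fell by 1.76 ± 0.18 (adjusted p = 1.8e-05), or by 1.75 without the fat-rich tumors. Tnf, the tumor necrosis factor, was at 6.79, 6.84, 6.61 and 6.83 against 7.24 to 8.73 and fell by 1.08 ± 0.15. The replicates thus agreed closely for Tnf, and for Cxcl16 the lowest was replicate 1.

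The other 8 of the 12 largest decreases under these rules were genes of varied roles. Lpcat2, which makes platelet-activating factor, was at 7.67, 8.13, 8.25 and 8.39 against 8.77 to 10.63 and fell by 1.71 ± 0.22. Rfc4, a subunit of the clamp loader at the replication fork, was at 9.12, 8.89, 9.42 and 9.76 against 9.89 to 11.66 and fell by 1.32 ± 0.13. Dck, which phosphorylates deoxycytidine for nucleotide salvage, was at 7.93, 7.89, 7.84 and 8.28 against 8.55 to 9.59 and fell by 1.04 ± 0.09. Dtnb, a dystrobrevin, was at 9.05, 8.97, 8.78 and 9.06 against 9.24 to 11.01, with the smallest gap to MVT-1, and fell by 1.14 ± 0.07. Uprt, Them6, Mbnl3, a splicing regulator, and Crybg1 fell by 1.24, 1.17, 1.06 and 0.88. All 12 were still lower without replicates 2 and 3, by 0.66 for Mbnl3 to 1.80 for Lpcat2.

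**Figure D3:**
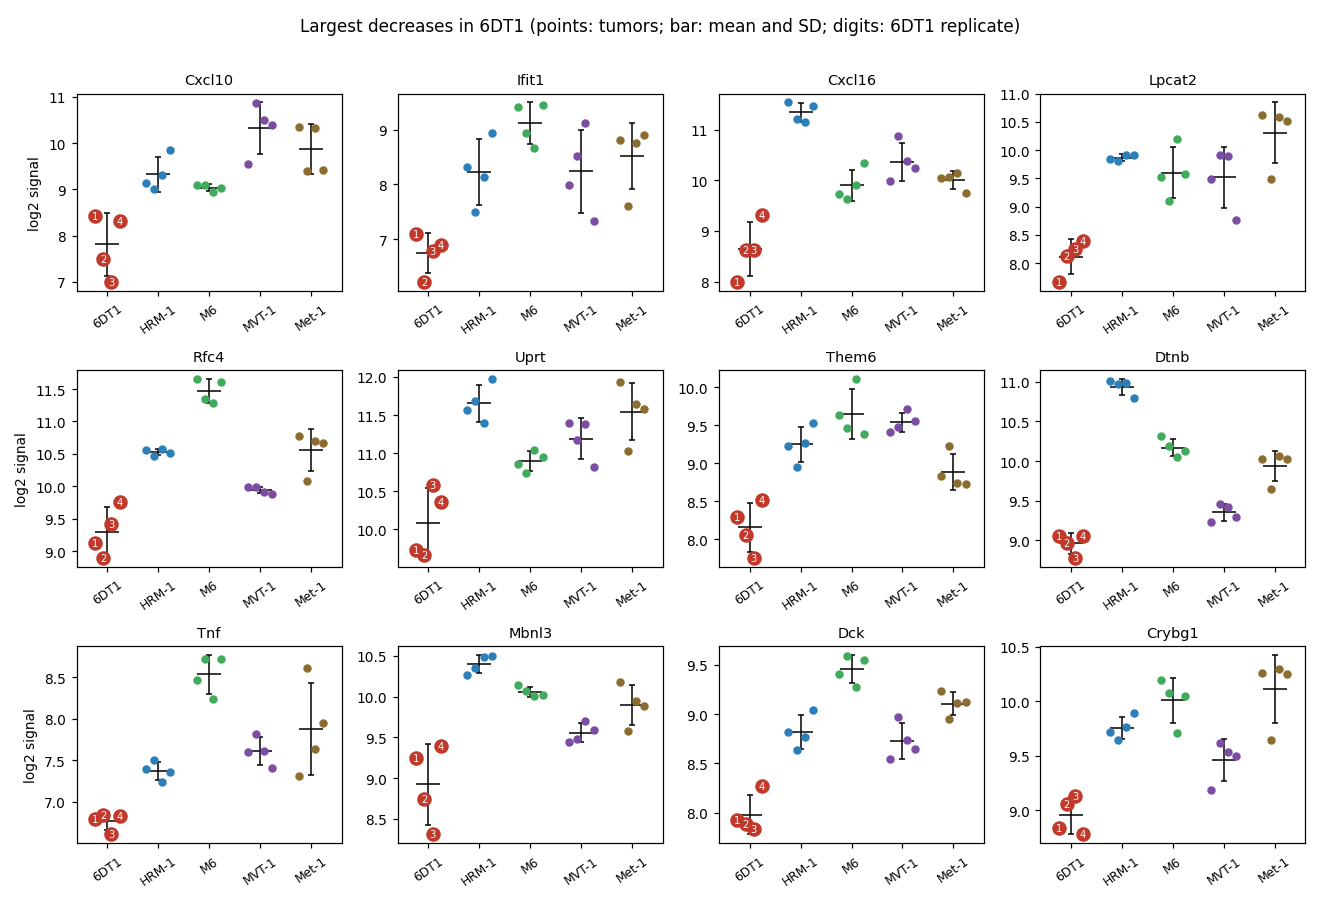
Log2 signal, by tumor model, of the 12 genes with the largest decreases in 6DT1 among those lower than in each other model and without overlap. Points are tumors, the digit is the 6DT1 replicate, and bars give the mean and SD (n = 4). In each panel the 4 6DT1 tumors lie below the 16 others; Cxcl10 ranges from 7.0 to 8.43 in 6DT1 and from 8.94 to 10.87 in the others.

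Interferon-response genes as a list were lower in 6DT1 than in the mean of the other models. Of 16 measured members 12 fell and none rose, against 14.3% of all genes that fell, and the median difference was -0.78 beside -0.005 for all genes. With replicates 2 and 3 left out, 4 fell, beside 10.7% of all genes, and the median was -0.49. These were Cxcl10, Ifit1, Ifit2 and Ifit3. All 16 differences were below 0 with the 4 tumors, but Ifit1 and Cxcl10 were the only members without overlap between 6DT1 and the others. The models differed: 11 members were lower than in M6, 8 than in Met-1, 6 than in MVT-1 and 3 than in HRM-1. Of all genes, 28.8%, 22%, 5.38% and 25.1% were called either way against these models. The list score was -0.52, -1.20, -1.06 and -0.73 in replicates 1 to 4. HRM-1 ran from -0.82 to 0.23, so replicates 1 and 4 lay within its range.

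The members differed in which 6DT1 tumors were low. Usp18, which removes the ubiquitin-like modifier ISG15, was at 9.87, 8.08, 8.15 and 9.0 against 8.79 to 11.30, so replicates 2 and 3 lay below all others and replicates 1 and 4 did not. It fell by 1.28 ± 0.30 (adjusted p = 0.0062), and the difference was -0.62 without these tumors (adjusted p = 0.23). Irf7, a master regulator of interferon genes, was at 9.76, 8.40, 9.21 and 9.31 against 8.76 to 11.07 and fell by 1.00, a call that was also lost without replicates 2 and 3. Ifit3 went the other way, at 6.67 and 6.56 in replicates 1 and 4 and 7.62 and 8.33 in replicates 2 and 3, and its difference of -1.19 was -1.87 without the latter. Oasl2, an antiviral protein related to the oligoadenylate synthetases, fell by 0.89 (adjusted p = 0.0085), and the difference was -0.51 without replicates 2 and 3 (adjusted p = 0.21). Irf1, an interferon-gamma-induced factor named after its values were seen, was at 9.86, 9.57, 9.43 and 9.82 against 9.90 to 10.59. Its decrease was 0.62 (adjusted p = 0.00016). Its lowest values elsewhere came close to those of replicate 1.

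**Figure D4:**
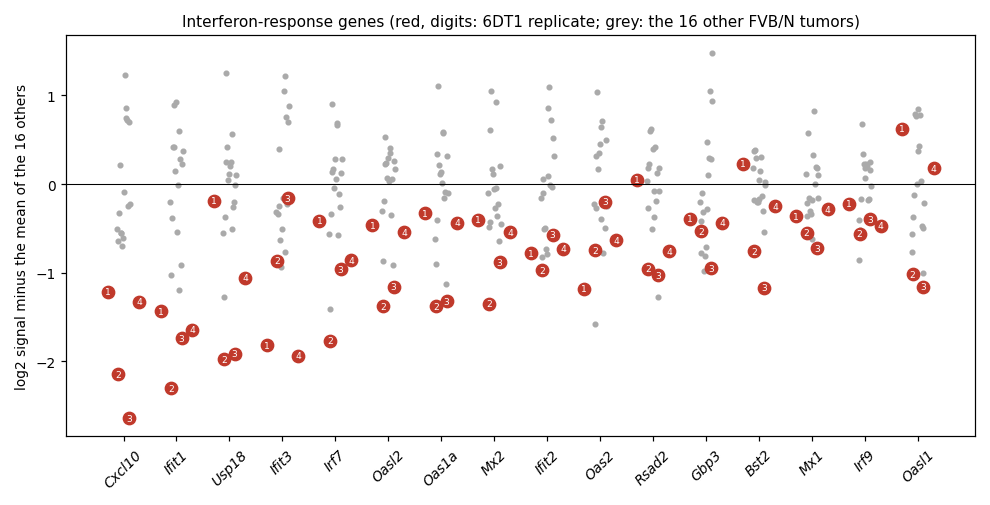
Log2 signal of 16 interferon-response genes in 6DT1 (red, with the replicate number) and in the 16 other FVB/N tumors (grey), each minus the mean of those 16. Genes are ordered by the difference of 6DT1 from the mean of the other models, from -1.83 for Cxcl10 to -0.34 for Oasl1. Replicates 2 and 3 are the lowest for Usp18 and Cxcl10, and replicates 1 and 4 for Ifit3.

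The upstream sequences of the 2 interferon-response genes without overlap are shown because both hold the interferon-stimulated element. The motif searched was GAAANNGAAA on either strand, read as TTTCNNTTTC on the other, in the 250 bases before the start, and matches are in capitals. The sequences are from RefSeq on GRCm38.p6, in the direction of transcription.
Cxcl10, chr5:92348890-92349139, minus strand: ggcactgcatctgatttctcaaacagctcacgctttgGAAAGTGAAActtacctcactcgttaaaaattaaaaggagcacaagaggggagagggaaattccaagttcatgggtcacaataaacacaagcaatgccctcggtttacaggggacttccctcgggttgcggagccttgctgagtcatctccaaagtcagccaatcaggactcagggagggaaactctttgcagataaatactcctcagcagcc
Ifit1, chr19:34640639-34640888, plus strand: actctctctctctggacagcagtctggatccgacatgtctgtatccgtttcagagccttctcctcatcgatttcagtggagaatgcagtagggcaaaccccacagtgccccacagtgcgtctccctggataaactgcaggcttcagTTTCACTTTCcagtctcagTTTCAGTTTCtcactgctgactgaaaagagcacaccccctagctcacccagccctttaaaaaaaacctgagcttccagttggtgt
The motif stood in 7 of 12 list members that had a promoter in the table, 58.3%, and in 3.04% of 27025 promoters. A match is a description of letters, and no binding was measured.

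Chemokines and cytokines as a list were called both ways. Of 28 measured, 4 rose and 4 fell, beside 8.18% and 14.3% of all genes, with a median of -0.04. The share that fell was thus near that of all genes. Without replicates 2 and 3, 9 rose and 4 fell, beside 10.2% and 10.7% of all genes, with a median of 0.40. Cx3cl1, the chemokine fractalkine, was at 9.53, 9.30, 8.88 and 9.38 against 9.25 to 10.88 and fell by 1.03 ± 0.17 (adjusted p = 0.00045). Il33, an alarmin of stroma and epithelium, was at 8.91, 9.06, 10.21 and 10.77 against 6.61 to 9.91 and rose by 1.28 (adjusted p = 0.02), but without replicates 2 and 3 the difference of 1.39 did not pass (adjusted p = 0.062). Ccl8, a monocyte chemokine, was at 10.49, 11.53, 11.73 and 11.35 against 7.17 to 11.91 and rose by 1.27, but 0.92 without replicates 2 and 3 did not pass (adjusted p = 0.23). Tslp, an epithelial cytokine, rose by 0.41, and its 6DT1 values of 5.75 to 6.12 overlapped those of MVT-1. Il33 and Ccl8 were called against HRM-1 and M6 and not against MVT-1 or Met-1.

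Of 11 macrophage markers 1 rose and 1 fell, near the 8.18% and 14.3% of all genes, so these counts are no result about macrophages. Cd163, a hemoglobin scavenger receptor of resident-type macrophages, was at 7.56, 9.49, 9.52 and 9.23 against 6.31 to 8.82 and rose by 1.81 ± 0.34 (adjusted p = 0.0013). Replicate 1 lay within the range of the others, and the difference without replicates 2 and 3 was 1.26 (adjusted p = 0.051). Fcgr1, an IgG receptor, fell by 0.71 (adjusted p = 0.036), and -0.63 without these tumors did not pass (adjusted p = 0.19). Against the mean of the other models none of 11 T and NK cell genes, or of 5 B cell genes, was called, beside 22.4% of all genes. Single models differed: 5 T and NK cell genes were lower and 1 higher than in Met-1. 2 were lower than in MVT-1, 2 were higher than in M6 and none was called against HRM-1. Of all genes, 22%, 5.38%, 28.8% and 25.1% were called either way against these models. The T and NK cell score was -0.31, -0.36, -0.40 and -0.16, against 0.35 to 1.28 in MVT-1.

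Epithelial genes parted the 4 6DT1 tumors. Epcam, an adhesion molecule of nearly all epithelia, was at 5.73 and 5.96 in replicates 1 and 4 and at 10.15 and 10.47 in replicates 2 and 3. It was between 5.85 and 6.88 in MVT-1 and between 10.40 and 11.90 in HRM-1, M6 and Met-1. Replicates 1 and 4 thus lay with MVT-1, and replicates 2 and 3 near the low end of the other models. Cdh1, E-cadherin, was at 7.77, 10.29, 10.65 and 8.34, against 8.19 to 8.76 in MVT-1 and 10.01 to 12.10 in the other 3 models. Krt7 was at 7.06, 9.40, 9.70 and 6.61, against 6.74 to 7.17 in MVT-1 and at least 9.74 elsewhere. The luminal keratins Krt8 and Krt18 did not share this, at 11.88 to 12.71 and 11.52 to 12.17 in the 6DT1 tumors, within the range of the others. So the tumors held strong epithelial keratin signal, as the mammary label asks, but 2 of the 4 had Epcam no higher than MVT-1.

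Of 20 luminal genes 8 fell and 1 rose, beside 14.3% and 8.18% of all genes, with a median of -0.79. The scores were -1.77, 0.59, 0.30 and -1.87 in replicates 1 to 4. MVT-1 scored from -1.93 to -1.55 and the other 3 models from 0.00 to 1.19. Without replicates 2 and 3, 15 fell, beside 10.7% of all genes, and the median was -1.85. Krt7 fell by 2.25 ± 0.47 (adjusted p = 0.0027), Cldn7 and Cldn3, claudins of the tight junction, by 1.55 and 1.49, and Elf3, an epithelial transcription factor, by 1.40. Without replicates 2 and 3 these differences were -3.61, -2.45, -2.39 and -1.98. The luminal genes in replicates 2 and 3 were high together with the milk protein and basal genes above. Against MVT-1 alone no luminal gene was called, beside 5.38% of all genes.

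Gata3, the transcription factor of luminal identity, was the luminal gene that rose. It was at 10.20, 11.29, 11.09 and 10.02, against 6.69 to 7.25 in HRM-1, 8.68 to 9.89 in M6, 10.23 to 10.46 in MVT-1 and 10.64 to 11.12 in Met-1. The increase of 1.19 ± 0.22 (adjusted p = 0.0011) was thus one over HRM-1 and M6, and it was 0.65 without replicates 2 and 3 (adjusted p = 0.056).

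Of 25 junction genes 10 fell and none rose, beside 14.3% and 8.18% of all genes, with a median of -0.43. Without replicates 2 and 3, 14 fell, beside 10.7% of all genes. Cldn9 was even in 6DT1, at 6.68, 6.77, 6.55 and 6.68. It was between 10.96 and 11.25 in HRM-1, between 8.08 and 8.86 in MVT-1 and between 6.52 and 7.03 in M6 and Met-1. The difference of -1.59 ± 0.10 (adjusted p = 1.1e-07) was thus set by HRM-1 and MVT-1, and Cldn9 was the 1 junction gene called against MVT-1. Cgn, cingulin, and Marveld2, tricellulin, fell by 1.40 and 1.02. Cgn was called only against HRM-1 and M6, and Marveld2 against each model except MVT-1. Cldn2 fell by 1.06, a call lost without replicates 2 and 3 (-1.07, adjusted p = 0.062), but it was between 4.88 and 5.28 in 6DT1, M6, MVT-1 and HRM-1 alike and at 7.55 to 10.03 in Met-1.

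The cell cycle inhibitors Cdkn2a and Cdkn2b were low in all 4 6DT1 tumors. Cdkn2a, which encodes p16 and p19Arf, was at 7.41, 7.07, 7.09 and 6.99. It was between 7.14 and 7.38 in MVT-1, between 7.87 and 9.47 in Met-1, between 9.37 and 10.19 in M6 and between 10.41 and 10.68 in HRM-1. The difference was -2.02 ± 0.20 (adjusted p = 1.2e-05) from the mean of the other models and -0.14 from MVT-1 (adjusted p = 0.77). Cdkn2b, which encodes p15, was at 7.32, 7.36, 7.60 and 7.21 and between 7.19 and 7.60 in MVT-1, against 7.81 to 10.49 in the other 3 models, and it fell by 1.41 ± 0.18. Neither followed the fat content, with differences of -1.96 and -1.52 without replicates 2 and 3.

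Mtap, an enzyme of methionine salvage, is the nearest protein-coding gene on the other side of Cdkn2a in the RefSeq order, and it was looked up after these values were seen. It was at 6.01, 8.43, 9.06 and 7.56 in 6DT1 and at 7.63 to 9.95 in MVT-1, and from 9.45 upward in the other 3 models. It fell by 2.06 ± 0.43 (adjusted p = 0.0026), and by 3.04 without replicates 2 and 3. Replicates 1 and 4 were the lowest of the 20 tumors, and 6DT1 and MVT-1 were the models with a wide spread. Dmrta1, the nearest protein-coding gene beyond Cdkn2b, was between 5.29 and 5.56 in 6DT1 and between 5.32 and 6.11 elsewhere, with a difference of -0.14 (adjusted p = 0.31). Copy number was not measured.

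Of 15 measured inhibitors and p53 targets 4 fell and 2 rose, beside 14.3% and 8.18% of all genes, with a median of 0.05. Mdm2, the ligase that degrades p53, fell by 0.81, or by 0.37 without replicates 2 and 3, but it was at 12.65 to 12.98 in HRM-1 and 9.20 to 9.82 in the other 3 models, and 6DT1, at 8.96 to 10.07, was not called against those 3. Cdkn1b, p27, fell by 0.42 and was called only against M6, where it was at 11.17 to 11.44, and Met-1. The differences of -0.18 from HRM-1 and -0.17 from MVT-1 did not pass. Phlda3, a p53 target that restrains Akt, rose by 0.59, or by 0.37 without replicates 2 and 3. With all 4 tumors, Phlda3 was called only against Met-1, with a difference of 1.62. Its differences from HRM-1, M6 and MVT-1 were 0.14 to 0.41 and did not pass.

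**Figure D5:**
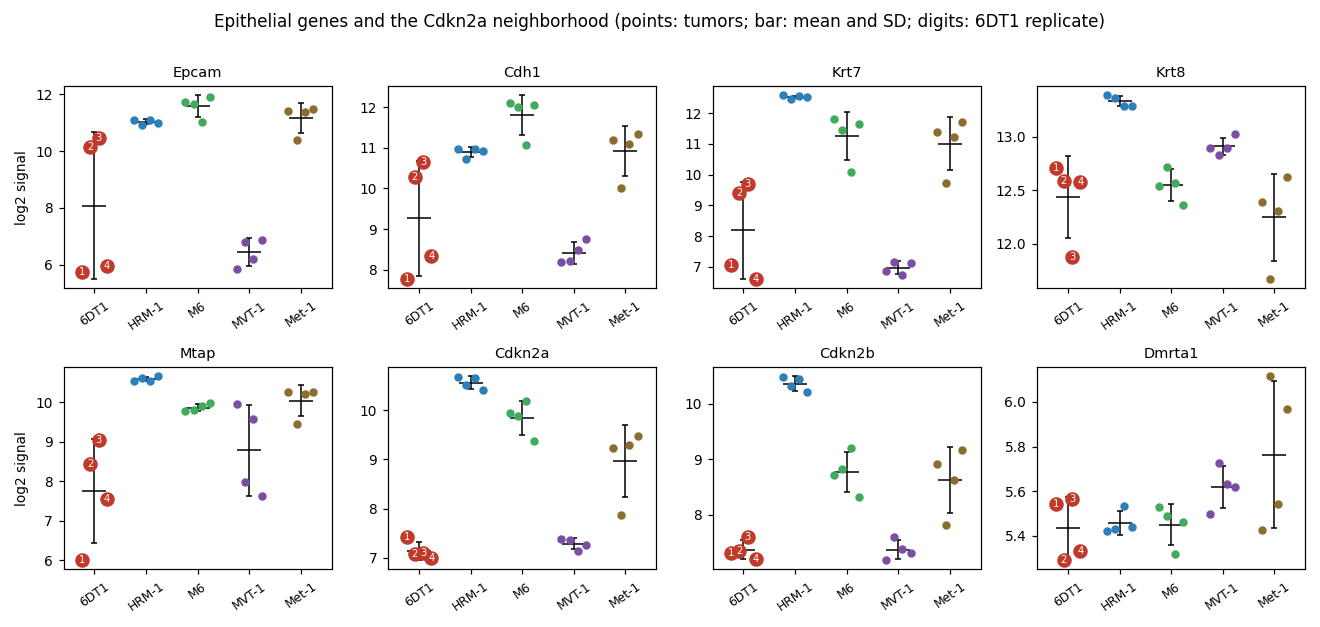
Log2 signal of 4 epithelial genes and of 4 neighboring genes around Cdkn2a, by tumor model. Points are tumors, the digit is the 6DT1 replicate, and bars give the mean and SD (n = 4). For Epcam, Cdh1 and Krt7, 6DT1 replicates 1 and 4 lie with MVT-1, and for Cdkn2a and Cdkn2b all 4 do.

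Proliferation genes were lower in 6DT1 than in the mean of the other models, with the lowest scores in the fat-rich tumors. Of 19 measured 15 fell and none rose, beside 14.3% of all genes that fell, with a median of -0.66. Only 4 fell without replicates 2 and 3, beside 10.7% of all genes, and the median was -0.11. The scores were -0.29, -0.96, -1.44 and 0.01, and MVT-1 ran from -0.38 to -0.10. The 4 that were called both ways were Mcm3, Mcm4 and Mcm5, subunits of the replicative helicase, and Pcna, the sliding clamp. Mcm5 was at 9.60, 9.17, 9.34 and 10.18 against a median of 10.21 and a highest value of 11.68, a difference of -0.94 ± 0.12 (adjusted p = 6.6e-05), and of -0.62 without replicates 2 and 3. Mcm4 was at 9.67, 9.04, 9.11 and 10.05 against 9.71 to 11.20, a difference of -0.79 and of -0.40. Ccna2, cyclin A2, was at 10.88, 10.30, 9.89 and 11.18 against 10.72 to 12.21, and its decrease of 0.86 was lost without replicates 2 and 3. M6 was the highest model for each of these genes, and all 19 list members were lower in 6DT1 than in M6. Against HRM-1, Met-1 and MVT-1, 8, 4 and 1 of the 19 were lower. Of all genes, 25.1%, 22% and 5.38% were called either way against these 3 models, so the decrease was mainly one from M6 and HRM-1.

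Myc itself was at 12.87, 11.91, 10.35 and 12.79 in 6DT1. It was between 12.67 and 12.85 in HRM-1, 12.51 and 12.65 in MVT-1, 10.99 and 11.18 in M6 and 10.33 and 10.67 in Met-1. Replicates 1 and 4 were therefore at the level of HRM-1 and MVT-1, while replicate 3, with fat and skin genes, was at that of Met-1. The difference from the mean of the other models was 0.27 ± 0.28 (adjusted p = 0.53), and it was 1.12 without replicates 2 and 3 (adjusted p = 1.3e-06). Of 20 Myc targets 2 fell and none rose, beside 14.3% and 8.18% of all genes, so no excess of lower genes was seen. Nolc1 fell by 0.42 and Pa2g4 by 0.31, both factors of ribosome production, and both calls were lost without replicates 2 and 3. In replicates 1 and 4 alone, 9 rose and none fell, beside 10.2% and 10.7% of all genes, and the median turned from -0.18 to 0.22. Of 13 genes of the Myc network 2 fell, near the 14.3% of all genes. These were Max, the partner of Myc, by 0.26 and Mlx by 0.36, and both were also lower without replicates 2 and 3.

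The study measured TGF-β, so the genes of this pathway were read next. TGF-β is made as a latent ligand in 3 isoforms, freed by integrins, and signals through receptors to Smad proteins. Tgfb1 was at 11.06, 10.14, 9.86 and 11.12 in 6DT1 and from 9.79 over 10.89 to 11.29 in the others. The difference was -0.19 ± 0.19 (adjusted p = 0.51), 0.36 without replicates 2 and 3 (adjusted p = 0.13), and 0.41 when Met-1 replicate 2 was left out as well (adjusted p = 0.00018). Tgfb2 was at 7.37, 7.91, 7.92 and 7.73, within 6.60 to 8.90 in HRM-1, M6 and MVT-1 and below 8.47 to 9.78 in Met-1 (difference from Met-1, adjusted p = 0.0028). Tgfb3 was at 10.30, 11.10, 10.40 and 10.47, with a difference of 0.00 ± 0.18. No isoform was called against the mean of the other models. Ppib, cyclophilin B, a housekeeping gene probed beside TGF-β in the study's in situ hybridization, was at 12.16, 12.07, 12.34 and 12.28 against 12.11 to 12.67 and fell by 0.26 (adjusted p = 0.007), or by 0.19 after quantile normalization.

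Of 16 ligand and latency genes 3 fell and none rose, beside 14.3% and 8.18% of all genes. Itgb8, part of an integrin that frees TGF-β, was at 6.63, 8.49, 8.35 and 6.67 and fell by 1.08, with the low values again in replicates 1 and 4. It was between 10.40 and 10.99 in M6 and between 8.26 and 9.67 in Met-1. In HRM-1 and MVT-1 it was at 6.80 to 6.96 and 6.82 to 8.32, and 6DT1 was not called against these models. Ltbp2, a latent TGF-β binding protein family member, and Itgb5 fell by 0.59 and 0.55, and the differences of -0.17 and -0.38 without replicates 2 and 3 did not pass (adjusted p = 0.6 and 0.28). With all 4 tumors, Ltbp2 was called only against HRM-1 and Met-1, and Itgb5 only against HRM-1 and MVT-1. Of 17 receptors, Smads and regulators 8 fell and 2 rose, and 3 fell and 1 rose without replicates 2 and 3, beside 14.3% and 10.7% of all genes that fell. Smad2 was at 9.38, 9.18, 9.55 and 9.24 against 9.51 to 10.32 and fell by 0.44 ± 0.07 (adjusted p = 0.00031). Tgfbr1, the type I receptor, fell by 0.47 and Smad4 by 0.25, the last not after quantile normalization (adjusted p = 0.065) or without replicates 2 and 3 (adjusted p = 0.094). Tgfbr3, betaglycan, rose by 1.20, with 10.98 and 11.21 in the fat-rich tumors and 9.86 and 10.10 in the others, and 0.64 without the former did not pass (adjusted p = 0.22).

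Of 14 TGF-β targets 8 fell and 1 rose, beside 14.3% and 8.18% of all genes, with a median of -0.48. Without replicates 2 and 3, 3 fell, beside 10.7% of all genes, and the median was -0.21. These 3 were Cdkn2b, Pmepa1 and Tgif1. Pmepa1, which restrains the receptors, was at 11.39, 11.67, 11.67 and 11.95 against 11.81 to 12.75 and fell by 0.60 both ways. Tgif1, a Smad corepressor, was at 10.88, 10.30, 9.99 and 11.05 against 10.54 to 11.69 and fell by 0.83, or by 0.41 without replicates 2 and 3. Smad7 and Skil, which restrain the pathway, fell by 0.65 and 0.66 with the lowest values in replicates 2 and 3, and neither passed without them.

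Of 22 collagens, laminins and other matrix genes 7 rose, 1 fell and 14 were not called, beside 8.18% of all genes that rose, and the median was 0.37. Without replicates 2 and 3, 3 rose and 2 fell, beside 10.2% and 10.7% of all genes, and the median was 0.18. Lamc1, the gamma chain of most basement membrane laminins, was at 11.66, 11.11, 11.37 and 11.35 against 9.90 to 11.24 and rose by 0.84 ± 0.11 (adjusted p = 9.3e-05), or by 0.98 without these tumors. Col5a1, of fibrillar collagen V, was at 8.97, 8.77, 9.06 and 9.30 against 8.07 to 8.97 and rose by 0.55, or by 0.66. Col3a1 and Col1a1 rose by 1.18 and 0.80, were lowest in replicate 1 among the 4, and did not pass without replicates 2 and 3. The score of 12 fibroblast and pericyte markers, which include these 2 genes, was -0.65, 1.18, 1.42 and 0.41 in replicates 1 to 4, against -0.69 to 0.54 in the 16 others. 3 of the 12 rose, beside 8.18% of all genes. Without replicates 2 and 3 none rose and 3 fell, beside 10.2% and 10.7% of all genes. The part of these markers in the collagen result was not tested. Lamb3, an epithelial laminin chain, was the gene that fell, by 0.97, and 6DT1 and MVT-1 were both low for it. None of the 22 matrix genes was called against MVT-1. Against HRM-1 6 rose and 3 fell, against M6 9 rose and 1 fell, and against Met-1 8 rose and none fell. Of all genes, 5.38%, 25.1%, 28.8% and 22% were called either way against these models.

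Among 16 angiogenic factors 4 rose and none fell, beside 8.18% and 14.3% of all genes, with a median of 0.15. Without replicates 2 and 3, 1 rose and 1 fell, beside 10.2% and 10.7% of all genes, and the median was -0.09. With all 4 tumors, none of the 16 was called against MVT-1. Against HRM-1 1 rose and 3 fell, against M6 4 rose and 3 fell, and against Met-1 5 rose and 1 fell. Of all genes, 5.38%, 25.1%, 28.8% and 22% were called either way against these models. Vegfa was at 11.05, 10.60, 10.60 and 11.29 against 9.62 to 11.31 (difference 0.27, adjusted p = 0.38). Angpt2, which loosens vessels, was at 9.29, 8.86, 8.68 and 8.70 against 7.37 to 9.17 and rose by 0.83, or by 0.94 without replicates 2 and 3. Vegfd, Angptl4 and Vegfb rose by 1.20, 0.93 and 0.49, calls that were lost without these tumors. Vwf, an endothelial product, was at 8.23, 9.59, 9.52 and 7.77 against 6.88 to 8.18, so its rise of 1.19 lay in replicates 2 and 3 beside their endothelial scores and 0.41 without them did not pass (adjusted p = 0.2). Of 30 Hox and Sox genes, positional and lineage factors, 14 rose and 3 fell, beside 8.18% and 14.3% of all genes. Without replicates 2 and 3, 4 rose and 4 fell, near the 10.2% and 10.7% of all genes. Hoxa7 was at 7.52, 8.15, 8.26 and 7.64 against 6.78 to 7.62 and rose by 0.73, or by 0.42 without these tumors (adjusted p = 0.059). Hoxb4 rose by 0.43, while Sox9 fell by 1.33. Sox11 fell by 0.97, but it was between 5.28 and 5.82 in all models except M6, where it was at 8.87 to 9.55.

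6DT1 was called least often against MVT-1, which is also known as a line from a Myc transgene. No origin is given here for HRM-1, and the part of the transgene in these counts was not tested. 1072 genes differed there, 5.38%, with 238 higher (1.19%) and 834 lower (4.18%) in 6DT1. Against Met-1, HRM-1 and M6 the counts were 4380, 4997 and 5751 (22%, 25.1% and 28.8%). The 4 counts share the 6DT1 tumors and their spread. Over all genes, replicate 4 correlated with the 4 MVT-1 tumors at a mean r of 0.986 and with the other models at 0.941 to 0.969, and replicate 1 at 0.977 against 0.928 to 0.963. Replicates 2 and 3 were nearest to each other, at 0.976. Genes are not independent, so these r are descriptions. The count against MVT-1 rested on few tumors: it ranged from 416 without MVT-1 replicate 3 to 2378 without 6DT1 replicate 4.

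The contrast treats the other 4 models as given. When the 16 tumors were 1 group and the model a random block, 4 genes were higher, Hcar2, Cntnap1, Mir680-1 and Mirlet7c-1, and none was lower with limma, where 513 and 1018 genes had an unadjusted p under 0.05. As 1 group without the block, 628 were higher and 742 lower. 1 array per tumor and 4 tumors per model limit the precision, and the p-values measure the spread between tumors of a line.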

How the data were processed

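RNA of 48 mouse mammary tumors, 1 array each, had been hybridized to Affymetrix Mouse Gene 1.0 ST arrays, and 20 FVB/N tumors of 5 models were used here. The authors deposited log2 signal for 35556 transcript clusters. Which software, background correction and scaling they used is not stated in the sources read here. FVB/N array medians lay between 6.76 and 6.94, detection values were not used, no batch is labeled and no pair of arrays was a duplicate. Groups and replicate numbers came from the sample titles.

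The 21789 clusters that name 1 gene in the probe annotation were kept (1621 name several, 12146 are unnamed), and 21698 of them matched a RefSeq gene. Where a gene had more clusters (999 genes), its brightest by mean over the 48 arrays stood for it, giving 19938 genes. The clusters' genome build is not given, so coordinates are printed only for RefSeq sequences. With limma 3.58.1 (R 4.3.3), each model was a group in a linear fit, with the contrasts 6DT1 minus the mean of the other 4 models and 6DT1 minus each. A gene was called at a Benjamini-Hochberg adjusted p under 0.05 over all genes, which assumes that the authors' scaling makes arrays comparable. Folds are 2 to the power of a log2 difference. The fit was tested on simulated data. Lists were described by counts and medians.

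The members, gene lists and tests were chosen with earlier results of these data known. Named genes are the 12 largest increases and 12 largest decreases among genes called against the mean and against each model whose tumors do not overlap (predicted symbols left out), from each described list at most 6 genes, taken by p, and Tgfb1, Tgfb2, Tgfb3, Ppib, Myc and Vegfa. Others, among them Epcam, Krt8, Krt18, Ifit3, Irf1, Mtap, Dmrta1, Mir680-3, Mirlet7c-1, Etfa, Bola3, Ndufa5 and the marker genes of fat, gland and skin, were named after their values were seen. Alternatives were other scalings, gene summaries, filters, fits and groupings, a replicate block, the methods' t-test, and leaving out tumors or models. Figures and tables were made with Python 3.11.15, pandas 2.3.3, numpy 2.4.6 and matplotlib 3.10.9.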

Additional observations from a re-analysis of the deposited data

Results flagged for a closer look

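Among the 4 6DT1 tumors, 1 value stood apart from the other 3 by Dixon's test at the 95% level in 7 of 145 sets of values examined, and chance alone sets apart about 1 in 20. The skin keratinocyte score was 4.47 in replicate 3, with -0.25 as the nearest. The skeletal muscle score was 0.95 in replicate 3, with -0.37 as the nearest. Krt8 was lowest in replicate 3, at 11.88 against 12.57. In replicate 1, Cd163 was at 7.56 against 9.23, Prodh at 9.0 against 9.34, and the score of TGF-β receptors and Smads at -0.16 against -0.05. Suclg1 was highest in replicate 2, at 10.28 against 9.81.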

How the results depend on the processing

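Relative to the mean of the other models (1631 higher, 2844 lower), a fit over all 48 tumors called 2726 higher. Taking the 16 tumors as 1 group gave 628 higher and 742 lower, and with the model as a random block 4 and 0. Without HRM-1 or M6, 993 and 1081 were higher. The methods' t-test called 699 higher and 687 lower with adjustment, and 2524 higher without. Leaving out 1 tumor gave 924 to 2116 higher and 1879 to 3778 lower, the fewest without 6DT1 replicate 2 and the most without Met-1 replicate 2. A term for the replicate block gave 1698 higher and 2854 lower. Deviations of same-numbered tumors of different models correlated from -0.399 to 0.497, 20 of 40 pairs above 0.1, against 22 of 120 pairs with other numbers. The medians were 0.0961 and -0.0246, so same-numbered tumors were somewhat more alike. No label ties a number to a shared day or litter, so the number was not used as a pairing. The main p-values take no account of this likeness.

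Higher than in every model (95) became 325 with all 48 tumors, 52 without the dimmest 30% of genes, 192 with array weights, 252 without 6DT1 replicates 2 and 3, and 39 to 310 without 1 tumor. Lower than in every model (191) became 363 with all 48 tumors, 83 after quantile normalization, 85 after centring, and 66 to 396 without 1 tumor. All 4 tumors above the 16 (105) became 57 without the dimmest genes, 1001 without replicates 2 and 3, 160, 278 and 185 without M6, MVT-1 and Met-1, and 106 to 352 without 1 tumor. All 4 below (210) became 132 after quantile normalization, 124 after centring, 691 without replicates 2 and 3, 444 and 485 without MVT-1 and Met-1, and 212 to 465 without 1 tumor. Fewer tumors to separate raise these last counts by construction. Against MVT-1 (1072) all 48 tumors gave 2791 and leaving out 1 tumor 416 to 2378. Against Met-1 (4380) array weights gave 7428 and leaving out 1 tumor 2940 to 5766. Against HRM-1 and M6 leaving out 1 tumor gave 3597 to 5899 and 4679 to 6544.

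Leaving out 6DT1 replicates 2 and 3 with Met-1 replicate 2, chosen after seeing the data, gave 2775 higher than the mean, 404 and 356 genes higher and lower than every model, 1092 and 887 without overlap, 2194 calls against MVT-1 and 7687 against Met-1. Tgfb1 was then 0.41 higher (adjusted p = 0.00018), Tgfb3 -0.21, and the medians were 0.41 for chemokines and cytokines, 0.21 for Myc targets, -0.077 for angiogenic factors and -0.061 for citric acid cycle genes.

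Directions turned for these. Tgfb1 was 0.25 with array weights, 0.36 without replicates 2 and 3 and -0.38 to 0.04 without 1 6DT1 tumor. Tgfb2 was 0.013 without Met-1. Tgfb3 was -0.061 with array weights, -0.18 without replicates 2 and 3, -0.13, -0.0066 and -0.0067 without HRM-1, M6 and Met-1, and -0.18 to 0.09 without 1 tumor. Myc was -0.15 without Met-1 and as low as -0.026 without 1 tumor, with 1.14 as the highest value without replicates 2 and 3 and Met-1 replicate 2, and Mdm2 was 0.018 without HRM-1. Medians without replicates 2 and 3 were 0.40 for chemokines and cytokines, 0.22 for Myc targets, -0.089 for angiogenic factors and -0.044 for citric acid cycle genes. Without 1 6DT1 tumor they reached 0.19 for chemokines and cytokines, -0.37 to 0.016 for Myc targets and -0.041 for cell cycle inhibitors, which were at 0.13 without all 3 tumors. The cause was not tested.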
